A study of Mus musculus with 6 samples.

Results

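The genes described here are those for the core proteins of the spliceosome's small nuclear ribonucleoproteins (snRNPs), the Sm proteins with the proteins specific to U1 and U2, and for their relatives, the like-Sm (LSm) proteins. They were taken by symbol, as the rows of the count table that begin with Snrp or with Lsm and a digit, without pseudogene rows, which gave 24 of 34573 genes. The 1 pseudogene row left out, Snrp1c-ps2, had 0 reads in every library. All 24 genes had enough reads to be tested, among 14004 genes tested in the whole table. The gene for LSm8 falls outside this rule because the table lists it under its older symbol, Naa38, and its values are given beside the others.

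RNA was sequenced from hematopoietic stem cells (HSCs), the self-renewing cells of the bone marrow that give rise to all blood lineages, in 3 Rpl22-/- and 3 Rpl22+/+ libraries. Rpl22-/- mice lack Rpl22, an RNA-binding protein of the large ribosomal subunit, in all their cells, and Rpl22+/+ mice are the wild-type controls. Both were young adults on a C57BL/6 background. In both groups the cells were sorted from marrow as negative for lineage markers and CD48 and positive for c-Kit, Sca-1 and CD150. They were lysed directly and made into polyA+ libraries with no further treatment. The labels do not say how many mice stand behind a library, so the p-values here measure the spread between libraries, which may be partly technical.

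Between 9321123 and 13385850 reads fell on genes per library, fewest in Rpl22+/+ replicate 3. Rpl22 itself was counted 449, 527 and 546 times in Rpl22-/- HSCs and 6890, 7001 and 5031 times in Rpl22+/+ HSCs, which matches the labels. None of 12 HSC markers was at 0 in every library. Their summed level lay between 2580 and 2740 CPM (reads scaled to library size, with TMM factors for composition) in Rpl22-/- libraries and between 2760 and 2810 CPM in Rpl22+/+ libraries, without overlap. Of these 12 markers 1, Fgd5, was called lower (log2 fold change −0.41), where 2.29% of all genes tested were. Of 17 markers of cells that the sort should leave out, 2 (Cd3e and Ms4a1) had 0 reads in every library. Their summed level was 316, 409 and 233 CPM in Rpl22-/- libraries and 191, 227 and 163 CPM in Rpl22+/+ libraries, without overlap. The largest part of each sum was 1 gene, Pf4, at 229, 219 and 143 CPM in Rpl22-/- libraries and 126, 159 and 79.2 CPM in Rpl22+/+ libraries. Of the 11 tested, 2 were called higher in Rpl22-/- HSCs, where 3.28% of all genes tested were. Both are genes of platelets and megakaryocytes, Pf4 (log2 fold change 0.70) and Gp9 (0.46). Pf4 overlapped between genotypes, and DESeq2 did not call it (adjusted p = 0.209). Mpo and Elane, of neutrophil precursors, had larger values that were not called (2.32 and 2.24, edgeR adjusted p = 0.0642 and 0.097). Mpo was at 13.9, 101 and 17.1 CPM in Rpl22-/- libraries and 1.46, 5.78 and 20.5 CPM in Rpl22+/+ libraries, so that Rpl22-/- replicate 2 stood apart. The part of these markers in the results below was not tested. In RNA from many cells, fewer cells of a type and less RNA per cell cannot be told apart.

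Introns are removed from pre-mRNA by the spliceosome, whose U1, U2, U4 and U5 particles each carry a small nuclear RNA held in a ring of the Sm proteins B, D1, D2, D3, E, F and G. The ring is put together in the cytoplasm by the SMN complex from partial assemblies, of B with D3, of D1 with D2, and of E, F and G. The LSm proteins form matching rings, one on U6 RNA in the nucleus with LSm8, and one in the cytoplasm with LSm1, which helps to start the decay of mRNA by removal of its cap.

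In Rpl22-/- HSCs the transcripts for 4 of the 7 core proteins of the Sm ring rose while those for 2 fell. Snrpf, Snrpd3, Snrpb and Snrpd1 were 1.69, 1.59, 1.47 and 1.41 times their Rpl22+/+ levels, and Snrpe and Snrpg were 0.69 and 0.65 times theirs. Snrpa and Snrpc, for proteins of the U1 particle, and Lsm4 and Lsm7, of the LSm rings, rose to between 1.31 and 1.43 times their Rpl22+/+ levels. A gene was called where its Benjamini-Hochberg adjusted p, over all genes tested, was below 0.05 in the quasi-likelihood test of edgeR. By that rule 8 of the 24 genes were higher, where 3.28% of all genes tested were, and 2 were called lower, where 2.29% of all genes were. The other 14 did not pass. Every Rpl22-/- library was above every Rpl22+/+ library for 10 of the 24 genes, against 13.3% of all genes tested, and below every one for 5, against 13.6%. The median log2 fold change over the 24 genes was 0.267 and over all genes tested −0.007, and 16 of the 24 values were positive.

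**Figure D1:**
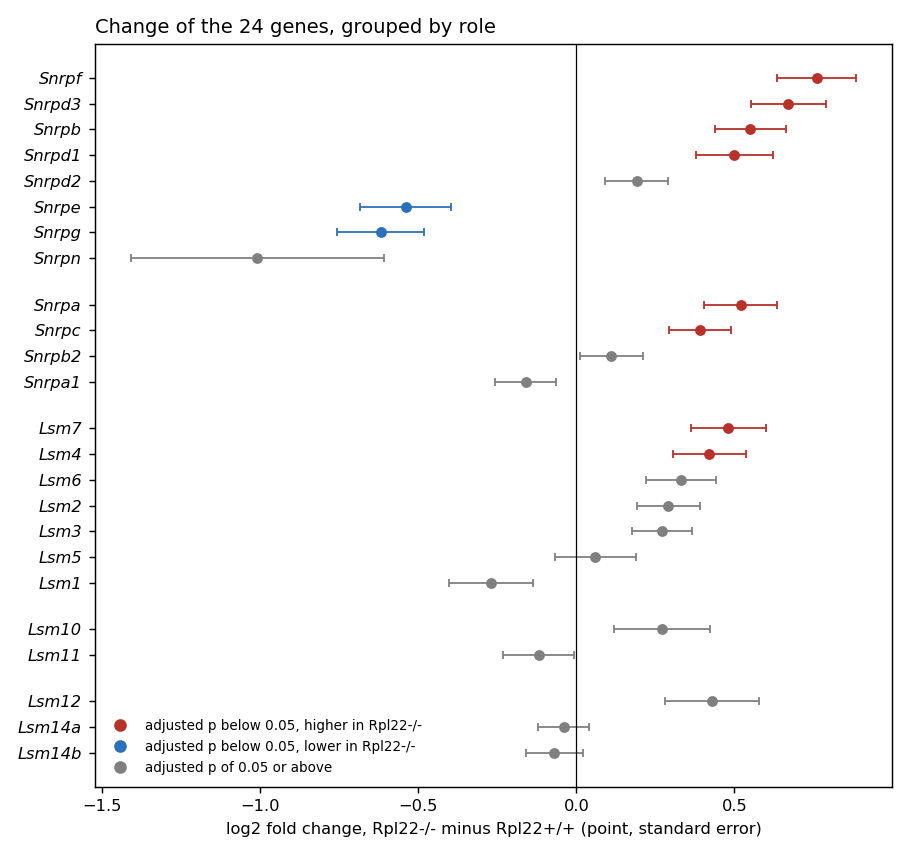
Log2 fold change of each of the 24 genes, Rpl22-/- minus Rpl22+/+ HSCs, with its standard error as a horizontal bar and the genes grouped from top to bottom as Sm ring, U1 and U2 proteins, LSm ring proteins, U7 ring and longer LSm proteins. In the top group Snrpf, Snrpd3, Snrpb and Snrpd1 lie to the right of 0, at 0.50 to 0.76, and Snrpe and Snrpg to the left, at −0.54 and −0.62. The same group holds Snrpd2, at 0.19, and Snrpn, at −1.01 with few reads, neither of them called.

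Of the ring genes, the largest rises were in Snrpf and Snrpd3, and the genes that fell were Snrpe and Snrpg. The 250 bases before the RefSeq start of each of these 4 genes are shown so that those that moved in opposite directions can be read side by side. Gene positions given further below are from GENCODE, whose starts differ from these. By the GENCODE positions the Snrpd3 window lies wholly, and the Snrpg window mostly, inside the gene. They are RefSeq windows in GRCm38.p6, the assembly also named mm10, read 5′ to 3′ on the gene's own strand, with capitals for matches to any of 5 short motifs, searched on both strands: CACGTG (E-box), CCAAT (NF-Y), CGGAAG (ETS core), TGCGCA (core of an NRF1 site) and AAGATGG (YY1). The windows are chr10:93589659-93589908 on the reverse strand for Snrpf, chr10:75517792-75518041 on the forward strand for Snrpd3, chr1:133610281-133610530 on the reverse strand for Snrpe, and chr6:86371290-86371539 on the forward strand for Snrpg.
Snrpf: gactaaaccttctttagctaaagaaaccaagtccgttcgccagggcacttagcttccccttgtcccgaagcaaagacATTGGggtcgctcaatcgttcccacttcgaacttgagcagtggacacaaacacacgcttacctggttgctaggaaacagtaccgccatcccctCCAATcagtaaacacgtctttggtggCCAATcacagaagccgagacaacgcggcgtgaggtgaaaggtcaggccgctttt
Snrpd3: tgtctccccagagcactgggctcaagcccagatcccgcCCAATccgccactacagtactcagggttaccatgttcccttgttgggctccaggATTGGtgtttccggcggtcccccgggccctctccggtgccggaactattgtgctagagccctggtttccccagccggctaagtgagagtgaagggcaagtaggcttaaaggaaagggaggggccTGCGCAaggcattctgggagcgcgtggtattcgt
Snrpe: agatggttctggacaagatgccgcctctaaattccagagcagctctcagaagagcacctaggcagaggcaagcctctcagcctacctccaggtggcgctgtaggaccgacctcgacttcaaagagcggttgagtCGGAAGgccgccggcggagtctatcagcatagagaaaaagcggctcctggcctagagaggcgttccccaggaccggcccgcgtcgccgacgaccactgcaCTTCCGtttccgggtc
Snrpg: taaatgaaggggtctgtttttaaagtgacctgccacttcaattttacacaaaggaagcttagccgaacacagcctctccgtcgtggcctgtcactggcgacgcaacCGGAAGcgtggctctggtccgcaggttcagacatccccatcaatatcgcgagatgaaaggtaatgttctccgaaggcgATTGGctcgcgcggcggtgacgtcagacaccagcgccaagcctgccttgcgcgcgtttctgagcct

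The Snrpf window holds CCAAT or its reverse complement at 3 places, beginning −173, −80 and −54 bases from the RefSeq start, and none of the other motifs. The Snrpd3 window holds it at −212 and −158, with TGCGCA at −34. Of the genes that fell, Snrpe has CGGAAG or its reverse complement at −116 and −16 and no CCAAT, while Snrpg has CGGAAG at −144 and CCAAT at −66. RefSeq windows were matched for 19 of the 24 genes. CGGAAG lay in the windows of 10 of the 19 genes (52.6%) and in 13.6% of all 32851 windows, CCAAT in 8 (42.1%) and 33.8%, TGCGCA in 6 (31.6%) and 6.43%, and CACGTG and AAGATGG in 1 gene each (5.26%), Snrpa and Lsm7, against 6.02% and 4.49%. Some genes have several windows, and a match to letters is not a bound site. The shares of the 19 are per gene, with a match in any of its windows. Those of all windows are per window and not limited to genes tested, so these shares are not like for like.

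Snrpf encodes SmF, which joins the ring together with SmE and SmG, and lies on chromosome 10 from 93583029 to 93589706 on the reverse strand. Rpl22-/- replicates 1, 2 and 3 gave 1384, 1882 and 1742 reads on it, and the Rpl22+/+ replicates 1054, 1084 and 640. All Rpl22-/- libraries were above all Rpl22+/+ libraries, at 132 ± 24.4 CPM (SD, n = 3) and 78.2 ± 10.5 CPM (SD, n = 3). This is a log2 fold change of 0.76 with a standard error of 0.125 (edgeR, adjusted p = 0.00465). Of the exon bases of Snrpf, 65.9% lie in exons of Ccdc38, annotated on the opposite strand, and the strand setting of the counting is not stated. Reads on the shared bases may therefore be missing from both rows or counted in the wrong one. Ccdc38 had 893, 1152 and 931 reads in Rpl22-/- libraries and 826, 838 and 406 in Rpl22+/+ libraries (0.44, adjusted p = 0.0956). A further gene on the opposite strand, the noncoding 4933408J17Rik (4933408J17RIK in the table), shares 19.5% of the Snrpf exon bases. It had 621, 807 and 847 reads against 372, 342 and 205 and was called higher (1.21, adjusted p = 0.000328). The log2 fold change was 0.63 with the rows of Snrpf and Ccdc38 summed (adjusted p = 0.0148), 0.88 with those of Snrpf and 4933408J17Rik (0.00149), and 0.74 with all 3 (0.00644).

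SmD3, which pairs with SmB, is encoded by Snrpd3, on chromosome 10 from 75517551 to 75537381 on the forward strand, where 6.7% of its exon bases lie in exons of Gucd1 on the other strand. Its reads numbered 1645, 1985 and 1967 in Rpl22-/- libraries and 1339, 1250 and 724 in Rpl22+/+ libraries, again without overlap in CPM. Snrpd3 stood at 148 ± 18.6 CPM in Rpl22-/- HSCs against 92.8 ± 15.2 CPM (SD, n = 3 each), and rose by 0.67 on the log2 scale (standard error 0.118; edgeR, adjusted p = 0.00659).

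Snrpb, on chromosome 2 (reverse strand, 130171414 to 130179403), encodes SmB and its longer splice form SmB′. Reads on it were 2941, 3820 and 4139 in Rpl22-/- libraries and 2562, 2529 and 1801 in Rpl22+/+ libraries. It rose from 196 ± 7.86 to 287 ± 50.2 CPM (SD, n = 3 each), and its spread was wider in Rpl22-/- HSCs, where replicate 1 was at 229 CPM and the others at 318 and 314 CPM. On the log2 scale this was a rise of 0.55 (standard error 0.112; edgeR, adjusted p = 0.0126).

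On chromosome 18, Snrpd1 encodes SmD1, which pairs with SmD2 and is methylated on arginines together with SmB and SmD3. Counts were 1509, 2097 and 1913 in Rpl22-/- libraries and 1353, 1417 and 884 in Rpl22+/+ libraries. The genotypes did not overlap, though Rpl22-/- replicate 1, at 118 CPM, stood close to Rpl22+/+ replicate 2, at 114 CPM. Snrpd1 rose by 0.50 on the log2 scale (standard error 0.122; edgeR, adjusted p = 0.0292). Its partner Snrpd2, by contrast, overlapped between genotypes, at 109 ± 13.3 and 95.8 ± 7.70 CPM (SD, n = 3 each), and did not pass (0.19, adjusted p = 0.285).

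The first of the ring genes that fell was Snrpe, which encodes SmE (chromosome 1, reverse strand, 133603871 to 133610291). Its counts were 944, 722 and 559 in Rpl22-/- HSCs and 1025, 1144 and 815 in Rpl22+/+ HSCs, for replicates 1, 2 and 3 in turn. In CPM these are 73.6, 60.1 and 42.5 against 78.7, 91.8 and 84.8, so that no library of the genotypes overlapped and Rpl22-/- replicate 1 lay nearest to the controls. Snrpe fell by 0.54 on the log2 scale (standard error 0.144; edgeR, adjusted p = 0.0412). Without Rpl22-/- replicate 3, the lowest library, the value was −0.35 and was not called (adjusted p = 0.139). A 669-base Snrpe transcript matches Snrpert at 99.6% identity over 225 bases (33.6% of it) and Gm43124 at 94.2% over 224 bases. Neither copy was found under its name in the count table, so summing their rows with Snrpe was not possible. Reads lying wholly where a copy matches exactly cannot be placed with certainty, and their part in the fall was not tested. Near-identical copies were also found for Snrpf and Snrpd1, which rose. Among them Gm13092 and Gm14277 have rows in the count table, with 0 to 3 reads in each library. Whether the copies bear alike on the counts of these genes was not tested.

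Snrpg, for SmG, lies on chromosome 6 (forward strand, 86371304 to 86379328). Its reads were 573, 479 and 366 in Rpl22-/- libraries and 699, 712 and 596 in Rpl22+/+ libraries. The level fell from 57.6 ± 4.18 to 37.4 ± 8.69 CPM (SD, n = 3 each) without overlap, by 0.62 on the log2 scale (standard error 0.139; edgeR, adjusted p = 0.0194). A processed pseudogene on chromosome 17, Gm8186, is identical to the Snrpg transcript over 231 bases, so that reads lying wholly in this stretch cannot be placed with certainty. Gm8186 had 133, 153 and 134 reads in Rpl22-/- libraries and 131, 105 and 96 in Rpl22+/+ libraries, and did not pass (0.22, adjusted p = 0.471). With both rows summed Snrpg fell by 0.47 (edgeR, adjusted p = 0.0361). Further copies, Gm49262 (96.2% identity over 315 bases), Gm29658, Gm6704 and AC134591.2, were not found under their names in the count table. Their rows could not be summed with Snrpg, and the part of the copies in the fall was not tested.

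Snrpn, for SmN, the protein that takes the place of SmB in neurons, had few reads, 12, 15 and 8 in Rpl22-/- libraries and 27, 23 and 16 in Rpl22+/+ libraries. The libraries did not overlap, but with a log2 fold change of −1.01 and a standard error of 0.400 (edgeR, adjusted p = 0.149) Snrpn did not pass at this depth.

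**Figure D2:**
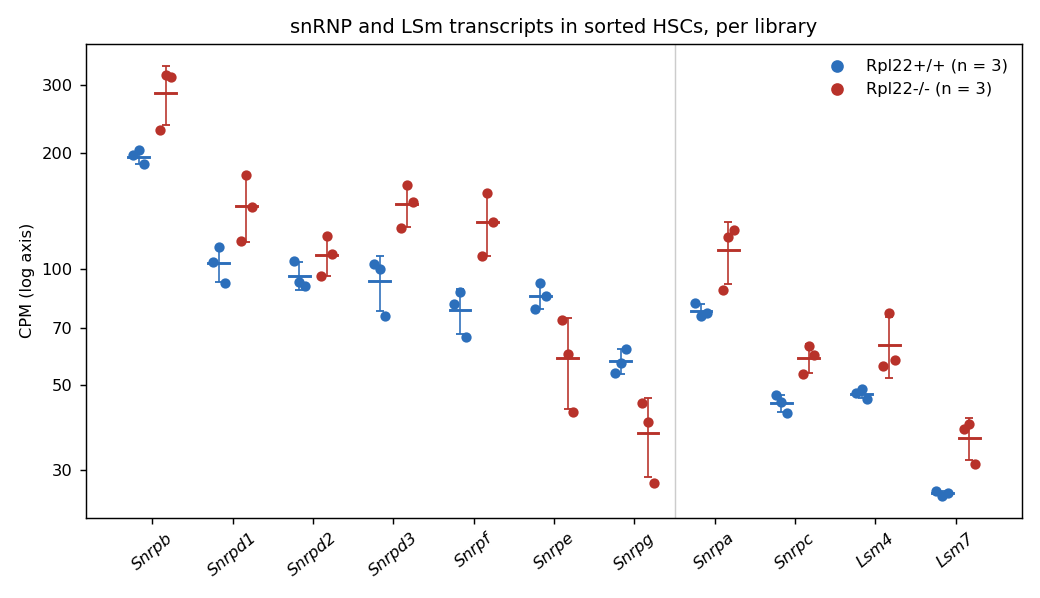
CPM of the 7 core Sm ring genes (left of the line) and of the 4 other genes called (right) in each library, on a log axis, with Rpl22+/+ in blue and Rpl22-/- in red, the mean as a horizontal line and the SD as a bar (n = 3). Among the 7, Snrpe and Snrpg are the ones whose red points all lie below the blue points, and Snrpd2 is the one whose points overlap.

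Because the 7 proteins enter the ring in equal numbers, each gene was also read against the mean of the 7 in its own library (log2 reads minus that mean), a measure chosen after the values above were seen. It does not depend on how libraries are scaled. On this measure Snrpe was at −0.48, −1.03 and −1.27 in Rpl22-/- libraries and −0.29, −0.12 and −0.05 in Rpl22+/+ libraries, a difference of −0.77. Snrpg was at −1.20, −1.62 and −1.88 against −0.84, −0.80 and −0.51, a difference of −0.85. Both lay lower in each Rpl22-/- library than in any Rpl22+/+ library. Snrpf, Snrpd3, Snrpb and Snrpd1 were higher against the ring by 0.55, 0.47, 0.34 and 0.28, without overlap, and Snrpd2 overlapped, with a difference of −0.02. Since each value is set against the mean of the same 7 genes, a rise in some lowers the others on this measure. An exact permutation test over libraries gave p = 0.1, the smallest it can reach here, for each gene without overlap, and p = 0.8 for Snrpd2. Because the measure was chosen after the values were seen, these p-values are no separate evidence.

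**Figure D3:**
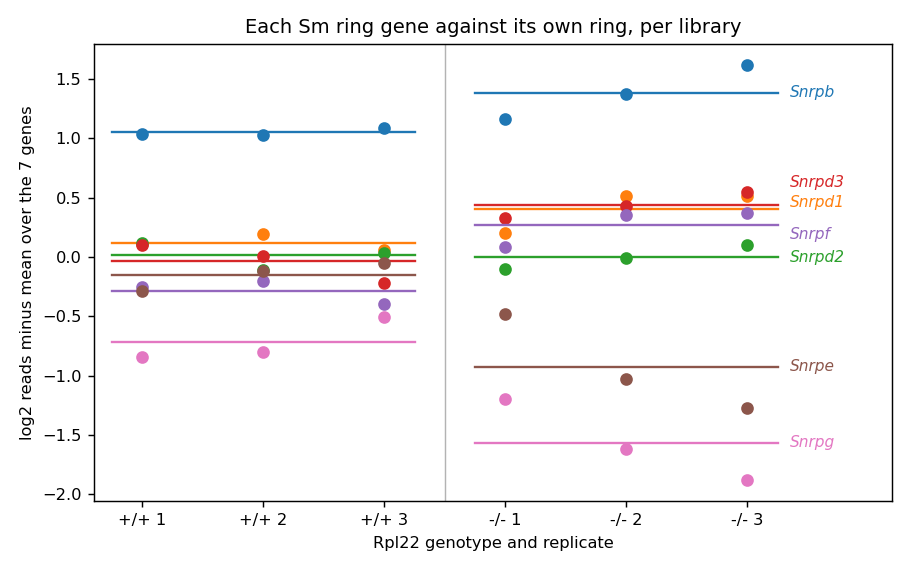
Log2 reads of each Sm ring gene minus the mean of the 7 genes in the same library, for the 3 Rpl22+/+ (left) and 3 Rpl22-/- (right) libraries, with a line at each genotype's mean. The genes spread apart on the right, where Snrpe and Snrpg have means of −0.92 and −1.57 against −0.15 and −0.72 on the left.

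In shares of all reads on the 7 genes, Snrpe took 9.23%, 5.80% and 4.61% in Rpl22-/- libraries and 10.9%, 12.3% and 12.9% in Rpl22+/+ libraries. Snrpg took 5.60%, 3.85% and 3.02% against 7.44%, 7.66% and 9.42%. The reads on Snrpf per read on Snrpg, whose proteins meet in the same partial assembly, were 2.42, 3.93 and 4.76 in Rpl22-/- libraries and 1.51, 1.52 and 1.07 in Rpl22+/+ libraries. Summed over the 7 genes, levels came to 918 ± 120 CPM in Rpl22-/- HSCs and 708 ± 45.2 CPM in the controls (SD, n = 3 each), so that the sum was 1.3 times as high while 2 of its parts were lower.

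Levels of the ring genes can be compared with each other only per length of transcript. Reads on shared or copied bases, as in Snrpf, Snrpe and Snrpg, may be left uncounted. The levels per length are not corrected for this, and its part in their order was not tested. Per kilobase, Snrpb had the highest mean level in Rpl22+/+ HSCs, at 169 CPM, with Snrpe at 155 and Snrpd1 at 154 CPM, and these 3 overlapped across libraries. Snrpf followed at 90.8, Snrpd2 at 67.5, Snrpg at 54.6 and Snrpd3 at 53.4 CPM per kilobase, and of these Snrpg and Snrpd3 overlapped while the others did not. In Rpl22-/- HSCs Snrpe was at 107 CPM per kilobase, with a mean below those of Snrpb (247), Snrpd1 (218) and Snrpf (153), though in Rpl22-/- replicate 1 Snrpe, at 134, was above Snrpf, at 125 CPM per kilobase. Snrpg was lowest in each Rpl22-/- library, with a mean of 35.5 CPM per kilobase. The highest ring gene exceeded the lowest by 4.66, 7.25 and 10.3 times in Rpl22-/- libraries and by 3.33, 3.23 and 3.73 times in Rpl22+/+ libraries.

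Of the 4 genes for proteins specific to U1 or U2, 2 were called higher. Snrpa encodes U1-A, which binds a stem loop of U1 RNA. It had 1131, 1449 and 1659 reads in Rpl22-/- libraries and 1060, 939 and 738 in Rpl22+/+ libraries, without overlap in CPM (88.1 to 126 against 75.4 to 81.4), and rose by 0.52 on the log2 scale (standard error 0.115; edgeR, adjusted p = 0.0187). Its exons share 327 bases with BC024978 on the opposite strand, whose row was also called higher (0.79, adjusted p = 0.0165). As for Snrpf, the strand setting is not stated, and reads on the shared bases may be missing or counted in the wrong row. With both rows summed the value for Snrpa was 0.58 (adjusted p = 0.0138). Snrpc encodes U1-C, which helps U1 to hold the start of an intron. Snrpc reads were 683, 759 and 785 in Rpl22-/- libraries and 612, 561 and 407 in Rpl22+/+ libraries, which did not overlap in CPM, and rose by 0.39 (standard error 0.0978; edgeR, adjusted p = 0.0318). The genes of the U2 proteins U2-A′ and U2-B″, Snrpa1 and Snrpb2, overlapped between genotypes and did not pass, with log2 fold changes of −0.16 and 0.11 (adjusted p = 0.353 and 0.548).

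The LSm ring genes had mostly positive values, 6 of 7 with a median of 0.288, and 2 were called. Lsm7, the counterpart of Snrpg in the LSm rings, had 491, 476 and 411 reads in Rpl22-/- libraries and 345, 320 and 252 in Rpl22+/+ libraries. It measured 36.4 ± 4.51 and 26.1 ± 0.415 CPM (SD, n = 3 each) without overlap, a rise of 0.48 on the log2 scale (standard error 0.119; edgeR, adjusted p = 0.0315). Lsm4, the counterpart of Snrpd3, had 718, 922 and 763 reads in Rpl22-/- libraries and 620, 605 and 442 in Rpl22+/+ libraries. The Rpl22-/- libraries, at 56.0, 76.7 and 58.0 CPM, were all above the Rpl22+/+ libraries, at 46.0 to 48.6 CPM, and replicate 2 stood apart from the other Rpl22-/- libraries. It rose by 0.42 (standard error 0.115; edgeR, adjusted p = 0.0438). Without that replicate the value was 0.26 (adjusted p = 0.16), and after both the length and the GC trend were removed it was 0.23 (0.282), neither of them called.

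Set beside their ring counterparts, Snrpg and Lsm7 moved in opposite directions (−0.62 and 0.48), while Snrpd3 and Lsm4 both rose (0.67 and 0.42). Lsm5, the counterpart of Snrpe, overlapped between genotypes, at 21.9 ± 1.78 and 20.9 ± 1.58 CPM (SD, n = 3 each), with a log2 fold change of 0.06 (adjusted p = 0.816). The counterparts of Snrpf, Snrpd1 and Snrpd2, which are Lsm6, Lsm2 and Lsm3, had values of 0.33, 0.29 and 0.27 that did not pass (adjusted p = 0.0905, 0.0970 and 0.106). Lsm1, which sets the cytoplasmic ring apart, was at −0.27 (adjusted p = 0.249), and LSm8, which sets the nuclear one apart, was at 0.14 under the symbol Naa38 (adjusted p = 0.426). The Naa38 row had 582, 595 and 609 reads in Rpl22-/- libraries and 575, 538 and 392 in Rpl22+/+ libraries.

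Of the other genes, Lsm10 and Lsm11, whose proteins take the places of SmD1 and SmD2 in the U7 particle that trims histone mRNA, were at 0.27 and −0.12 (adjusted p = 0.318 and 0.583), with overlapping libraries. Lsm12, Lsm14a and Lsm14b encode longer proteins that carry an LSm domain outside the rings, LSm14 in the storage and silencing of mRNA. Their values were 0.43, −0.04 and −0.07 (adjusted p = 0.0949, 0.805 and 0.691), and the highest of them, Lsm12, was 34.4, 56.9 and 49.6 CPM in Rpl22-/- libraries and 31.5 to 36.7 CPM in Rpl22+/+ libraries. None of these 5 genes was called by edgeR, DESeq2 or limma-voom, and the unadjusted p of 1 of them, Lsm12, was below 0.05.

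The wider spliceosome and the factors that build the rings were read from lists. EdgeR called 3.28% of all genes tested higher and 2.29% lower. Of 13 further U1 and U2 protein genes, 2 were called higher and 0 lower, Sf3b5 (log2 fold change 0.39, adjusted p = 0.0438) and Sf3b6 (0.37, adjusted p = 0.0349, listed as 0610009D07Rik), small subunits of the SF3B complex that grips the branch point. For 4 of these 13 the unadjusted p was below 0.05. Of 17 genes for U5 and U4/U6 proteins edgeR called 0, with 15 positive values and a median of 0.13. The unadjusted p was below 0.05 for 6 of the 17 and for 22.3% of all genes tested. DESeq2, which called 7.42% of all genes, called 1, Ppih, a peptidyl-prolyl isomerase (log2 fold change 0.41). Bud31 was the 1 gene called of 13 in the Prp19 complex (0.42, adjusted p = 0.0259), where 3 had an unadjusted p below 0.05. Among 14 genes tested for ring assembly, Prmt5, the methyltransferase that modifies SmB, SmD1 and SmD3, was called higher (0.42, adjusted p = 0.0168). The median over these 14 genes was −0.055, and 2 had an unadjusted p below 0.05. For the remaining lists edgeR called 0 genes. These were 9 genes for the minor spliceosome's particles (2 with an unadjusted p below 0.05), 6 for export, cap and import of small nuclear RNAs (2), 5 for the maturation of U6 (0), 9 decapping partners of the LSm1 ring (3) and 6 tested for histone mRNA trimming (1). Among these DESeq2 called 2, both lower by 0.26 on the log2 scale, namely Dcp2, the decapping enzyme, and Slbp, which binds the histone stem loop, and limma-voom, which called 5.3% of all genes, called 0. An unadjusted p below 0.05 was found for 22.3% of all genes, as above.

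Genes of the cell cycle were read from 2 further lists. EdgeR called 0 of 12 S phase genes and 0 of 12 G2 and M phase genes, with unadjusted p below 0.05 for 1 and 3 of them, where 22.3% of all genes had one, and DESeq2 called 1, Plk1, a mitotic kinase (log2 fold change 0.54). The summed level of the S phase genes was 2660, 3620 and 3010 CPM in Rpl22-/- libraries and 3010, 3110 and 2760 CPM in Rpl22+/+ libraries. That of the G2 and M phase genes was 1910, 2500 and 2870 CPM against 2150, 2170 and 2400 CPM. Both sums overlapped between genotypes.

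The genes described are short, with a median annotated transcript length of 1204.5 bases against 2562 bases over all genes tested, and change went with length across the table. The median log2 fold change was 0.105 among the 1038 genes with transcripts under 800 bases, of which 9.63% were called higher and 1.06% lower. Above 3600 bases it was −0.06, with 0.964% called higher and 3.99% lower. The genes that fell, Snrpe and Snrpg, have transcripts of 550 and 1055 bases, in classes where the medians of all genes were positive. With each library's trend on length removed, 4.88% of all genes were called, and 4 of the 24 were higher (Snrpf, Snrpd3, Snrpb and Snrpa) and 2 lower (Snrpe at −0.65 and Snrpg at −0.70). With trends on length and GC content both removed, 2.95% of all genes were called. Snrpf (0.79, adjusted p = 0.00497), Snrpd3 (0.65, 0.00910), Snrpe (−0.63, 0.0262) and Snrpg (−0.67, 0.0193) were among them and no other of the 24.

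**Figure D4:**
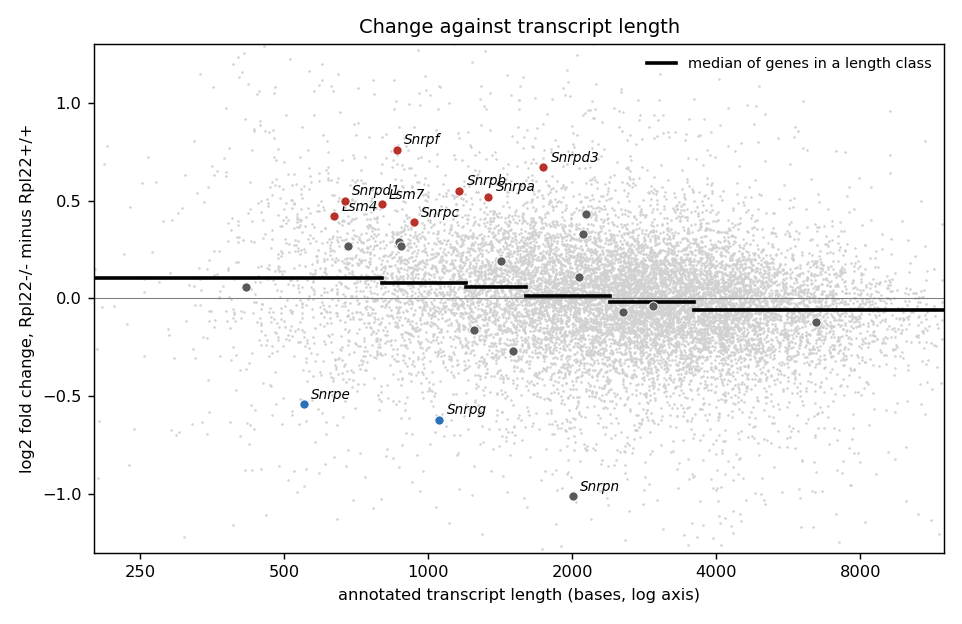
Log2 fold change of each gene tested (grey) against its annotated transcript length on a log axis, with the 24 genes as larger points (red higher, blue lower, dark grey not called) and a black line at the median of all genes in each length class. The medians step down from 0.105 to −0.06, Snrpe and Snrpg lie below the line of their class, and 110 genes beyond ±1.3 are outside the axis.

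The calls rested unequally on single libraries. Snrpf was called under each of 18 other ways of processing, those without 1 library included, and Snrpd3 under 17. Snrpb and Snrpg were called under 14, Snrpe under 12, Snrpd1 and Snrpa under 11, Lsm7 under 10, Snrpc under 9 and Lsm4 under 7. The direction of these 10 genes was the same in all 18. Without Rpl22-/- replicate 1, the library closest to the controls for Snrpe and Snrpg, 12 of the 24 genes were called higher and 2 lower, and 12.1% of all genes were called. Without Rpl22-/- replicate 2 the counts were 3 and 1, with 2.59% of all genes. Without Rpl22-/- replicate 3 they were 2 and 0, the 2 being Snrpf and Lsm7, with 0.892% of all genes. Without Rpl22+/+ replicates 1, 2 or 3 they were 2, 3 and 2 higher and 0 lower, with 1.44%, 1.82% and 1.69% of all genes.

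**Figure D5:**
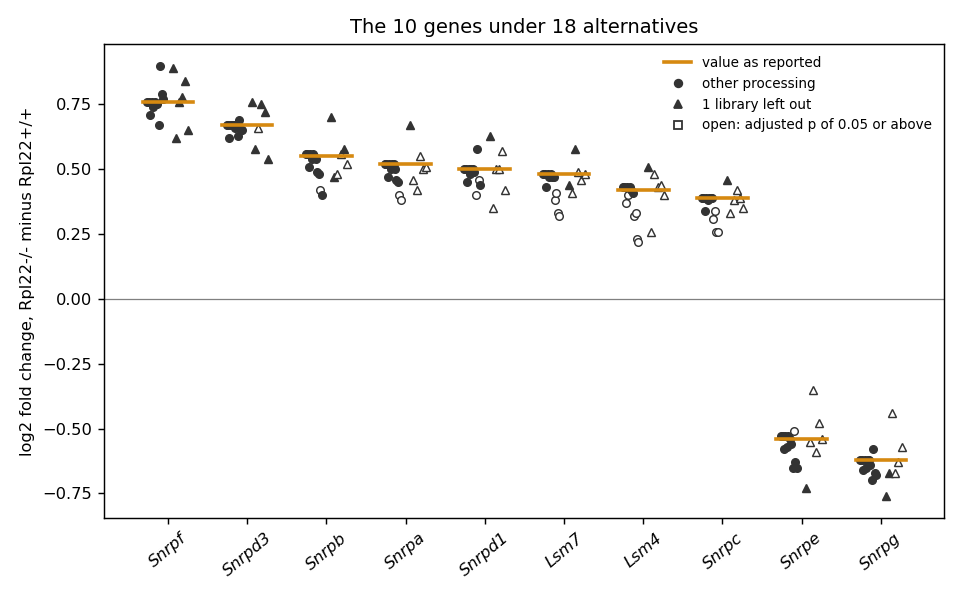
Log2 fold change of the 10 genes called, with an orange line at the reported value, circles for other processing of the counts and triangles for fits without 1 library, filled where the adjusted p was below 0.05. The symbols stay on 1 side of 0 for each gene, and Snrpf is the gene with filled symbols alone.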

How the data were processed

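Gene expression was measured in 3 Rpl22-/- and 3 Rpl22+/+ HSC samples, 1 library each. The authors aligned reads to mm10 with TopHat2 (2.1.1 in the submitters' processing notes) and deposited HTSeq counts per gene, whole numbers without normalization. The annotation and strand setting are not given in the sources used here. Rows of unassigned reads (58.6% to 60.9% of each library's counts) entered neither library sizes nor tests, and 0 per-sample columns were left unused. Among the unassigned, reads on no annotated feature made up 50.3% to 52.7% of each library's counts.

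Genotypes were compared by the quasi-likelihood test of edgeR 4.0.16 in R 4.3.3, with TMM scaling, no covariates and Benjamini-Hochberg adjustment over the 14004 genes that filterByExpr kept at a count of 10 or more. A gene was called at an adjusted p below 0.05. Standard errors come from the F statistic, and precision rests on 3 libraries a genotype. The methods were tested on simulated data first. Genes named are all 24, with values in full for those called, and up to 3 called genes of each list. Gm8186, BC024978, Ccdc38, 4933408J17Rik, Gucd1, Mpo and Elane, and the genes that DESeq2 alone called, were named after their values were seen. The 24 genes and the lists were chosen with earlier results of these data known.

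Positions, transcript lengths (median of basic coding transcripts) and GC content came from GENCODE's GRCm38 annotation, near-identical copies from BLAST 2.17.0 (at least 90% identity over at least 100 bases), and promoter windows from RefSeq. Figures used Python 3.11.15, pandas 2.3.3 and matplotlib 3.10.9. Alternatives were DESeq2 1.42.0, limma-voom (limma 3.58.1), other scaling (relative log expression, upper quartile, library size alone), no filter, at least 10 reads in every library, a replicate block, trends on length or GC content removed (lowess, span 0.3), and each library left out. Summing rows that share sequence was added after the data were seen, and it does not restore reads that the counting left unassigned.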

Additional observations from a re-analysis of the deposited data

How the results depend on the processing

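Depth and 3 libraries a genotype limit single genes, above all Snrpn, with 8 to 27 reads. The number of genes called over the whole table was 780 and became 1422 with no filter, 475 with the GC trend removed and 413 with length and GC trends removed. Of the 24 genes, 8 were called higher, which became 4 with the length trend removed (median log2 fold change 0.177), 5 and 1 lower with the GC trend removed, 2 with both removed (median 0.181), and 5 with both removed and a replicate block (median 0.179). Leaving out 1 library gave 127 to 1720 genes called, 2 to 12 of the 24 higher, 0 to 2 lower and medians of 0.171 to 0.306. Scaling by library size alone called 7 of the 24 higher and 2 lower, and 43.4% of all calls were then higher against 58.8% with TMM. The uncalled values of Lsm5 and Lsm14a changed sign, Lsm5 to −0.05 with the length trend removed, and Lsm14a to 0.01 with the GC trend removed, with both trends removed and with both and the block. Without 1 library Lsm14a lay between −0.07 and 0. The cause was not tested. DESeq2 and edgeR called the same 10 of the 24 genes.

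Same-numbered libraries did not deviate together (correlations −0.103, 0.0549 and 0.0448), and those of unlike number ranged from −0.171 to 0.132. With so few libraries this check cannot decide whether same-numbered libraries share more than a number, and the labels do not say. With the replicate block 904 genes were called, and 8 of the 24 were higher and 2 lower.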
